A study of Mus musculus with 2 samples.

Results

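Aquaporins are the membrane channels through which water, and for some of them glycerol, crosses cell membranes. Their RNA was followed in embryonic mouse ureters with and without a conditional loss of the transcription factor gene Gata6. The members are the 10 genes Aqp1, Aqp2, Aqp3, Aqp4, Aqp5, Aqp6, Aqp7, Aqp8, Aqp9 and Aqp11, taken by name among the non-control probes of both arrays. They hold 15 of the 39429 probes. In the RNA labelled Gata6cKO, Aqp3 was 3.22-fold lower and Aqp1 1.77-fold lower than in control on the mean of 2 arrays. Aqp2, Aqp4, Aqp7 and Aqp11 were measured and did not pass the test, and Aqp5, Aqp6, Aqp8 and Aqp9 were too dim to be tested.

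The embryos were of the NMRI strain and at E14.5. Embryos called Gata6cKO had 2 floxed copies of Gata6 and 1 Tbx18 copy that holds cre (Tbx18(cre/+);Gata6(fl/fl)). The controls are labelled Gata6(fl/?), that is with a floxed copy, a second copy that is not specified, and no cre. Floxed Gata6 is thus shared by both groups, and the loss of Gata6 cannot be told apart from an effect of cre or of the altered Tbx18 copy. Tbx18 is a gene of the mesenchyme around the ureter's epithelial tube, so cre acts in cells with a Tbx18 history and not directly in every cell of the dissected ureter. Each array compared 1 Gata6cKO with 1 control RNA, both from males on the replicate 1 array and both from females on the replicate 2 array, where the dyes were exchanged. Sex and dye orientation therefore cannot be told apart between the arrays. Whether each RNA is from 1 embryo or pooled embryos is not in the labels, so the spread between these 4 RNAs may be partly technical. The p-values measure only that spread. For each gene it is mostly the spread pooled over all genes tested (12.16 prior against 1 residual degree of freedom). Whole ureters were measured, so fewer cells of a type and less RNA per cell cannot be told apart.

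The family is usually divided by what its members carry. Aqp1, Aqp2, Aqp4 and Aqp5 are water channels, Aqp6 is an intracellular channel related to them, and Aqp8 is a water channel of internal and plasma membranes. Aqp3, Aqp7 and Aqp9 are aquaglyceroporins, which also conduct glycerol, and Aqp11 is a divergent member of the endoplasmic reticulum. In the adult urinary tract AQP3 is known from urothelial and collecting duct cells, AQP2 is the vasopressin-regulated channel of the collecting duct, and AQP1 is known from red cells, small blood vessels and proximal nephron segments.

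Between 67.2% and 68.5% of all spots were well above background in each RNA by the flag of the scanner software. Each probe was printed in 4 spots per array. A probe was tested where at least 3 of these 4 spots carried that flag for 1 genotype, the same on both arrays; 19875 genes had such a probe. The Gata6 probe gave a log2 ratio of Gata6cKO over control of 0.85 on replicate 1 and 0.46 on replicate 2. Whether it lies in the floxed part was not settled here, so it does not check the labels. Gata6 is itself among the genes called higher in the RNA labelled Gata6cKO, at 0.65 ± 0.12 (limma adjusted p = 0.00573). It did not pass with median centring (adjusted p = 0.620), with no filter on dim probes (0.0699) or with separate channels (0.0524). Every direction given here rests on the label and not on a measured fall of Gata6.

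The probes behind the results are shown because the values below are the hybridisation to these stretches and not to the whole transcripts. They are written from the array files, 5′ to 3′, as the array's 60-base probes (Aqp2) or the first 30 bases of them (Aqp3 and Aqp1). The Aqp3 probe lies on the minus strand at chr4:41039962-41040021 and the Aqp1 probe on the plus strand at chr6:55298480-55298539, both on mm9. The Aqp2 probe is placed at chr15:99412578-99413554, a span of 977 bases for 60 bases of probe, so it is not 1 continuous stretch of the genome. The exon or UTR that each probe falls in was not analysed here.
Aqp3: atctggagctatgacccttgactgggggct
Aqp1: ctgtgtatgtttctttgcaattgaatttca
Aqp2: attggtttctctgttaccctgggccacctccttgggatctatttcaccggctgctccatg

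Among the aquaporins, the signal over background sorted the probes into 3 sets. All 16 spots (4 spots in each of 4 RNAs) were well above background for Aqp1, Aqp2, Aqp3, both probes of Aqp4 and both probes of Aqp11, and 15 of 16 for Aqp7. Aqp8 lay just outside the rule. Its brighter probe had 10 of 16 spots well above background, 2 and 4 of 4 in Gata6cKO and 3 and 1 of 4 in control, with processed signals of 13.4 and 16.3 in Gata6cKO and 13.2 and 11.8 in control. The Aqp7 probe, just inside it, had processed signals of 13.9 to 19.0 in the 4 RNAs. For scale, the 17214 negative-control spots had medians of 2.19 to 2.28 and 95th percentiles of 2.85 to 3.34 in the 4 RNAs.

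The remaining members were not well above background. Aqp5 had 1 of 16 spots flagged on each of its 2 probes, at processed signals from 3.90 to 7.56, above the negative-control range but under the flag's limit. Aqp6 had 0 of 16 on both probes, at signals from 2.24 to 4.69, and the other Aqp8 probe had 0 of 16 at 2.17 to 2.26. Aqp9, the aquaglyceroporin best known from liver, had 0 of 16 spots at 2.13 to 2.19, under the negative-control median of each RNA. No fold is given for these 4 genes. The family members outside the list behaved likewise: Mip, the lens aquaporin, had 0 of 16 and Aqp12, known from the pancreas, 2 of 16 spots well above background.

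**Figure D1:**
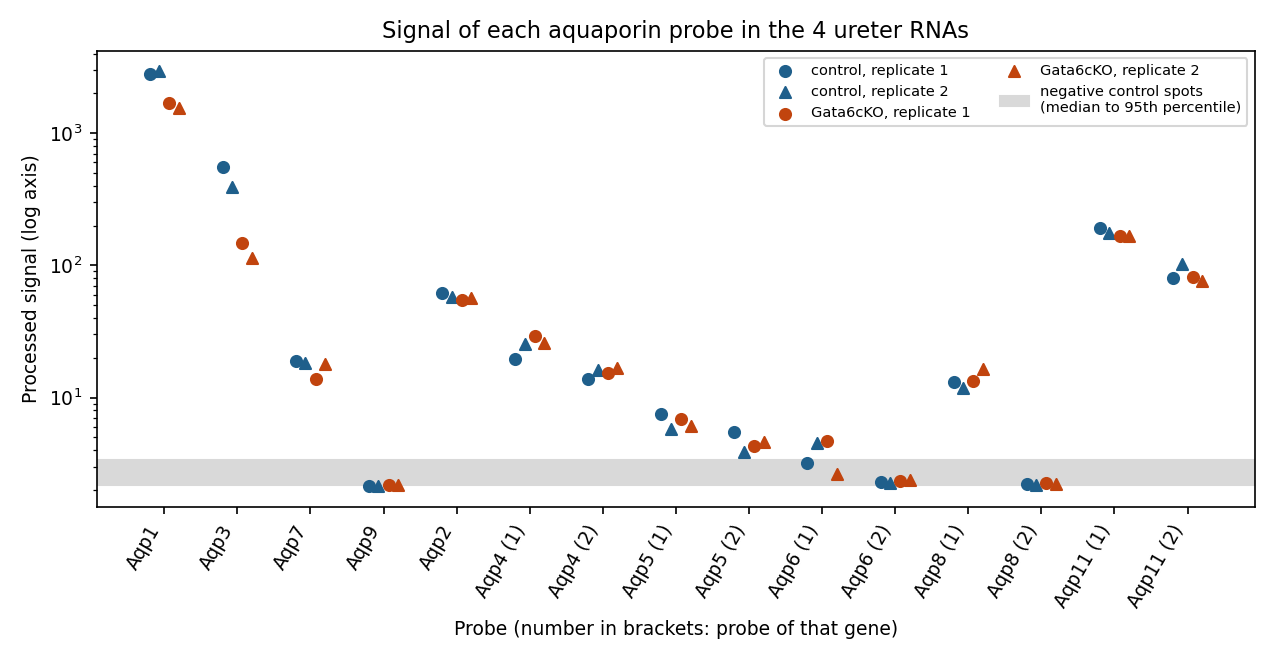
Processed signal (log axis) of each of the 15 aquaporin probes in the 4 ureter RNAs, 1 point per RNA and mean of the probe's spots, with the negative-control spots (17214) as a grey band from the lowest median to the highest 95th percentile. Aqp9 and the second probes of Aqp6 and Aqp8 lie in the lower part of the band or just under it, and only at Aqp1 and Aqp3 are the Gata6cKO points clearly under the control points. Heights of different probes are not comparable as RNA levels.

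Of the 10 members, 6 were tested, and of these 2 were lower, 0 higher and 4 did not pass (limma, Benjamini-Hochberg adjusted p under 0.05 over all genes). By the same adjusted rule, 2.36% of all 19875 genes were called lower and 2.22% higher. At an unadjusted p under 0.05 the members' counts were also 2 and 0, and the share of all genes at that threshold was not counted. With the prior spread of the fit estimated by maximum likelihood, a stricter setting chosen after seeing the data, 1.42% were lower and 1.51% higher, and the same 2 members passed (adjusted p = 0.00152 for Aqp3 and 0.0110 for Aqp1). On simulated data the standard prior came out too tight and passed more unchanged genes than its threshold allows, so the adjusted p-values given here without that setting are likely too small. At least 2-fold on both arrays, 1 member was lower (Aqp3) and 0 were higher, beside 0.211% of all genes lower and 0.186% higher. The median log2 ratio of the 6 members was -0.12, and that of all genes -0.00 with 5th and 95th percentiles of -0.29 and 0.26. The log2 ratio was negative on both arrays for 5 of the 6, beside 25.4% of all genes, and the signs differed for Aqp4. For 3 of these 5, Aqp2, Aqp7 and Aqp11, the 95% interval included 0.

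Aqp3, the aquaglyceroporin of basolateral membranes in epithelia, showed the largest difference among the 6 tested members. Its normalised intensity was 592 and 454 in Gata6cKO replicates 1 and 2 and 2006 and 1389 in control replicates 1 and 2. Both Gata6cKO values lay well under both control values. The log2 ratio was -1.76 on replicate 1 (males) and -1.61 on replicate 2 (females), with a mean of -1.69 ± 0.11 (moderated SE, n = 2 arrays; 95% interval -1.93 to -1.45; limma adjusted p = 2.69e-06). The 4 spots agreed closely, with an SD of 0.029 and 0.027 on the log2 scale. Among all genes tested, Aqp3 ranked 3 from the lowest log2 ratio and 8 by p.

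Aqp7 and Aqp9 complete the glycerol-conducting group. Aqp7, the channel through which fat cells release glycerol, lies next to Aqp3 on chromosome 4, with 59.5 kb between the probes (Aqp7 at chr4:40980431-40980490, mm9). Its normalised intensity was 125 and 136 in Gata6cKO and 142 and 140.3 in control, so the values lay close together. Both control values were the higher ones, and the share of all genes that split likewise was not counted. The log2 ratio was -0.18 and -0.04, with a mean of -0.11 ± 0.11 (limma adjusted p = 1.00) and a 95% interval of -0.35 to 0.13. An interval this wide leaves room for a small fall, and it does not reach the size of the Aqp3 difference. The Aqp7 probe is dim, and the offset used in processing pulls ratios of dim probes towards 0. Over the alternative settings its log2 ratio ran from -0.29 to -0.08. On replicate 1 the mean rests on 3 spots. The software marked the other spot as an outlier, and its processed signals were 77.7 and 77.4 in Gata6cKO and control, against 11.0 to 25.4 in the kept spots. The genes on either side of this pair had log2 ratios of -0.04 (Nol6, a nucleolar protein) and -0.02 (Nfx1, a zinc finger protein), and neither passed (limma adjusted p = 1.00 each). The low value on this stretch was thus that of Aqp3, while the next genes on both sides did not pass.

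Aqp1, the water channel named first in the family, was the other member that passed. Its normalised intensity was 5780.1 and 5154 in Gata6cKO and 9553 and 9806 in control. The 2 control RNAs were nearly alike, and both Gata6cKO RNAs lay under them. The log2 ratio was -0.72 on replicate 1 and -0.93 on replicate 2, with a mean of -0.83 ± 0.11 (moderated SE, n = 2 arrays; 95% interval -1.07 to -0.58; limma adjusted p = 0.000582). It ranked 113 from the lowest log2 ratio. The 4 spots had an SD of 0.023 and 0.0074, far under the difference between the arrays. With median centring in place of loess the adjusted p rose to 0.0439, still under the threshold.

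**Figure D2:**
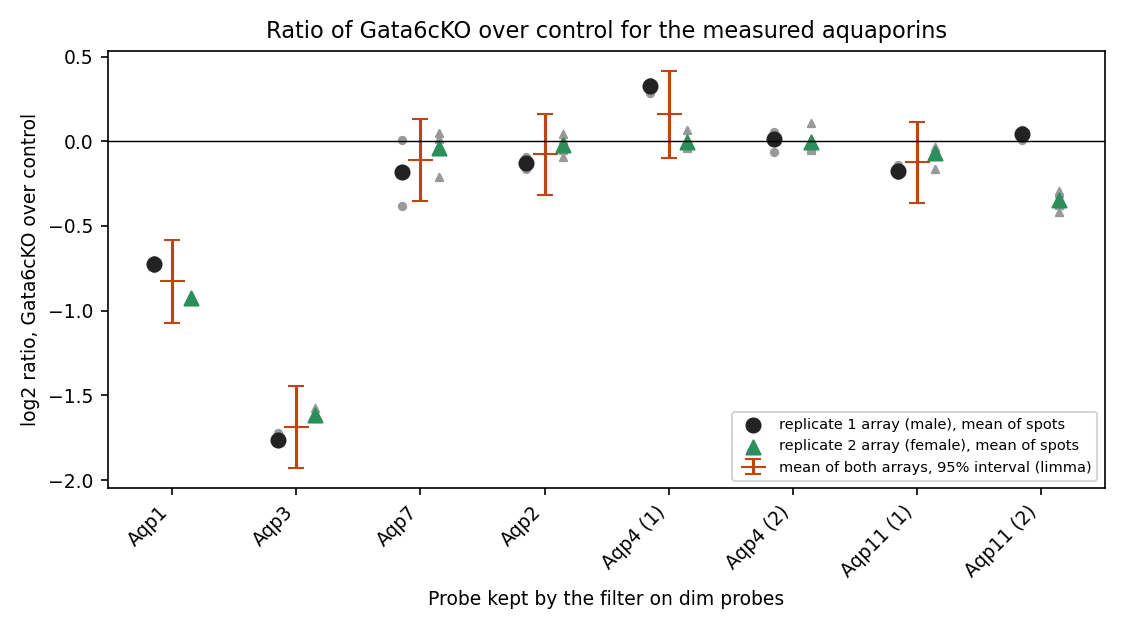
Log2 ratio of Gata6cKO over control for the 8 aquaporin probes above background: grey points are spots, large points the mean of the spots on the replicate 1 (male) and replicate 2 (female) array, and bars the mean of both arrays with its 95% limma interval for the probe that stands for the gene. The intervals of Aqp3 (-1.93 to -1.45) and Aqp1 (-1.07 to -0.58) lie below 0, and those of the 4 other genes include 0.

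Aqp2, the vasopressin-regulated water channel, had nearly the same intensity in the 4 RNAs, 268 and 266 in Gata6cKO and 293 and 270.2 in control. The log2 ratio was -0.13 and -0.02, with a mean of -0.08 ± 0.11 (limma adjusted p = 1.00; 95% interval -0.32 to 0.16). The control values were again the higher ones, without a count of all genes that split likewise. Aqp2 lies in a cluster with Aqp5 and Aqp6 on chromosome 15, 12.1 kb and 22.1 kb from their probes. The 3 neighbours thus differed in detection, with Aqp2 at 16 of 16 spots and the others at 0 or 1 of 16 on each probe.

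Aqp4, a water channel best known from astrocytes, was measured by 2 probes that differed. The brighter probe had normalised intensities of 183 and 165 in Gata6cKO and 146 and 166 in control, and the other 128 and 130.1 in Gata6cKO and 127 and 131 in control. The log2 ratios of the brighter probe were 0.33 and -0.0055, with a mean of 0.16 ± 0.12 (limma adjusted p = 0.946; 95% interval -0.10 to 0.42). The other probe gave 0.01 and -0.0049. At the brighter probe the Gata6cKO value of replicate 2 lay just under the control values' upper end, so the groups overlapped. The shift on replicate 1 was seen with 1 of the 2 probes. Both are dim, with processed signals of 19.7 to 29.4 at the brighter probe and 13.7 to 16.6 at the other. The offset pulls ratios of dim probes towards 0. Over the alternative settings the log2 ratio of Aqp4 ran from 0.08 to 0.33.

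Aqp11, the divergent member, had an intensity at its brighter probe of 687 and 639 in Gata6cKO and 775 and 672 in control. The Gata6cKO RNA of replicate 1 was higher than the control RNA of replicate 2, so the groups overlapped. The log2 ratio was -0.17 and -0.07, with a mean of -0.12 ± 0.11 (limma adjusted p = 1.00; 95% interval -0.36 to 0.12). The other probe gave 0.04 and -0.35, with intensities of 374 and 337 in Gata6cKO and 363 and 429 in control, so its signs differed between the arrays.

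**Figure D3:**
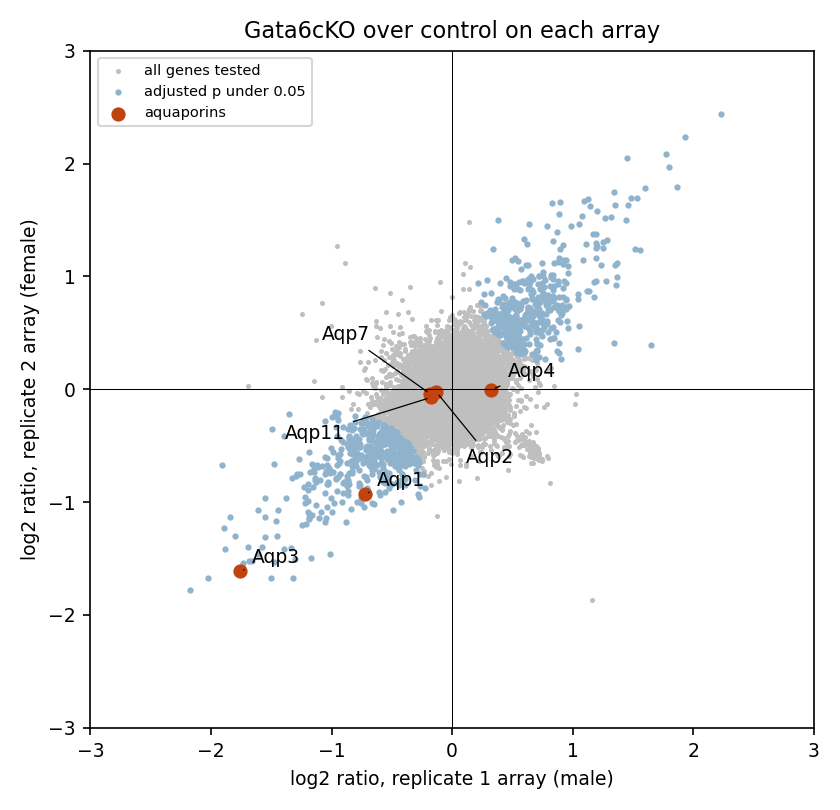
Log2 ratio of Gata6cKO over control on the replicate 1 array (horizontal) against the replicate 2 array (vertical) for the 19875 genes tested in grey, those with an adjusted p under 0.05 in blue and the 6 tested aquaporins in red. Aqp3 (-1.76 and -1.61) lies near the lower left end of the cloud, Aqp1 (-0.72 and -0.93) among the called genes, and the other 4 within the central cloud.

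The genes with values most like those of Aqp3, by Euclidean distance over the 2 log2 ratios, were Sprr1a, a precursor of the cornified envelope, at -1.74 and -1.57 (distance 0.049), Car3, a carbonic anhydrase, at -1.74 and -1.54 (0.079), and Hpgd, which degrades prostaglandins, at -1.66 and -1.52 (0.139). Those nearest to Aqp1 were Myh11, a myosin heavy chain of smooth muscle, at -0.69 and -0.93 (distance 0.035), Snap91, a clathrin assembly protein of neurons, at -0.75 and -0.97 (0.047), and Nrg1, a growth factor of the EGF family, at -0.70 and -0.88 (0.054). With 2 values per gene, such likeness is a description only.

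Markers of cell types that could hold aquaporin RNA were set beside these genes. Of 29 tested urothelial markers 16 were lower and 0 higher, with a median log2 ratio of -0.57, and Snx31 was not above background. The other 13 did not pass, among them Krt5 at -0.25, Epcam at -0.19, Trp63 at -0.15 and Krt14 at 0.02. The summed normalised intensity of the list was 238289 to 258834 in Gata6cKO and 327488 to 355076 in control. Bright probes weigh most in such a sum, among them Krt18, which did not pass at -0.11. Upk1b, a uroplakin of the apical plaque, was the marker of smallest p at -1.98 ± 0.12 (limma adjusted p = 1.61e-06), followed by Sprr1a at -1.66 ± 0.11 and Upk1a, another uroplakin, at -1.54 ± 0.11. Aqp3 lay lower than the list's median on both arrays (-0.67 and -0.49 for the list). The part of urothelial RNA in the Aqp3 result was not tested.

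For Aqp1, red cells and blood vessels were described in the same way. Of 16 erythroid markers 5 were lower and 0 higher, with a median of -0.34, and Rhag was not above background. The list summed to 306907 to 373812 in Gata6cKO and 439654 to 443713 in control. Most of each sum came from Hba-a1 and Hbb-y, which did not pass (limma adjusted p = 0.0779 and 0.184). Slc4a1, the anion exchanger of the red cell membrane, had -0.54 ± 0.12 (limma adjusted p = 0.0143), Hbb-b1, a beta globin, -0.47 ± 0.11 and Ahsp, the alpha globin chaperone, -0.46 ± 0.11. With the maximum likelihood prior 0 of the 16 passed. Of 18 endothelial markers, 1 was lower and 0 higher, with a median of -0.05, and the sums overlapped (128477 to 132226 in Gata6cKO, 130293 to 135921 in control). The endothelial gene that passed was Tek, the angiopoietin receptor, at -0.55 ± 0.11 (limma adjusted p = 0.0116). Of 9 mesothelial markers 4 were lower and 3 higher, with a list median of -0.37. Of the lower ones, Upk1b, Upk3b and Krt19 also stand in the urothelial list, and Msln does not. Krt7, which stands in both lists as well, did not pass at -0.37. The higher ones were led by Rspo1, a Wnt agonist, at 1.55 ± 0.11, and Wt1, a transcription factor, at 1.22 ± 0.11. The part of these cells in the Aqp1 result was not tested.

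Genes that act with aquaporins were counted next. Of 16 genes of glycerol and fat handling, the pathway that aquaglyceroporins feed, 2 were lower and 0 higher, with a median of -0.08. They were Pparg, a transcription factor of fat cells that also stands in the urothelial list, at -0.58 ± 0.11 (limma adjusted p = 0.00619), and Dgat2, an enzyme of triglyceride synthesis, at -0.46 ± 0.11 (limma adjusted p = 0.0275). With the maximum likelihood prior 1 of the 16 passed. Glycerol kinase (Gk), at a log2 ratio of 0.06, did not pass, and Adipoq, the fat cell hormone, was not above background. Of 22 genes of water, urea and ion transport 15 were tested, with 1 lower, 1 higher and a median of -0.07. Trpv6, an epithelial calcium channel, was at -0.53 (limma adjusted p = 0.0126), and Slc26a4, the anion exchanger pendrin, at 0.45 (limma adjusted p = 0.0342), and with the maximum likelihood prior 1 gene was lower and 0 higher. The urea transporter Slc14a1, at 0.03, did not pass.

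For the control of AQP2 by vasopressin, 16 genes were tested with limma and 0 passed in either direction, with a median of 0.00. At an unadjusted p under 0.05, 1 was lower and 2 higher, without a share of all genes beside it. With the maximum likelihood prior 0 passed. Avpr2, the vasopressin receptor of the collecting duct, was at 0.32 (limma adjusted p = 0.163) and did not pass, and Avp, the hormone, was not above background. Markers of collecting duct and nephron, where Aqp2 is known from, were counted in 1 list. Of 15 tested 7 were higher and 0 lower, with a median of 0.33, and 4 were higher with the maximum likelihood prior. Those that passed are mostly genes of the embryonic kidney's progenitors, bud and early tubules (Wt1, Wnt9b, Ret, Cited1, Lhx1, Lrp2 and Wnt11). Wt1, which also stands in the mesothelial list, was at 1.22 ± 0.11, Wnt9b, a signal of the ureteric bud, at 0.83 ± 0.11 and Ret, the GDNF receptor of the bud tips, at 0.64 ± 0.11. Some other genes listed for the collecting duct did not pass. Avpr2 was as above, and Foxi1, a transcription factor of intercalated cells, was at -0.37 (limma adjusted p = 0.0927). Hsd11b2, the enzyme that inactivates glucocorticoids in principal cells, was at -0.15 (limma adjusted p = 1.00). Calb1 and Atp6v1b1 were not above background. This split of the list was made after the values were seen. Umod, Slc12a1 and Slc12a3 of the thick limb and distal tubule were among the markers not above background. The part of such cells in the Aqp2 values was not tested.

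Other cell types were measured for the same purpose. Of 16 smooth muscle markers 4 were lower, led by Cnn1 (calponin) at -1.51 ± 0.11, and 2 higher, led by Synpo2 at 0.87 ± 0.11, with a median of -0.12. Of 20 markers of neurons and glia, where Aqp4 is best known in the brain, 11 were higher and 2 lower, with a median of 0.45 and Nefm, a neurofilament, at 1.83 ± 0.11. Of 13 skeletal muscle markers 7 were higher and 0 lower, with a median of 0.50, led by Myh3 at 1.04 ± 0.11. Of 10 hepatocyte markers 5 were tested and 1 was lower, Ttr, the thyroxine carrier, at -0.88 ± 0.11, while Apoa1, Apob, Fgb, Ahsg and Hnf4a were not above background. Of 15 markers of leukocytes and macrophages 0 passed with limma or with the maximum likelihood prior, with a median of -0.06. There was 1 lower and 1 higher at an unadjusted p under 0.05, without a share of all genes beside it.

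**Figure D4:**
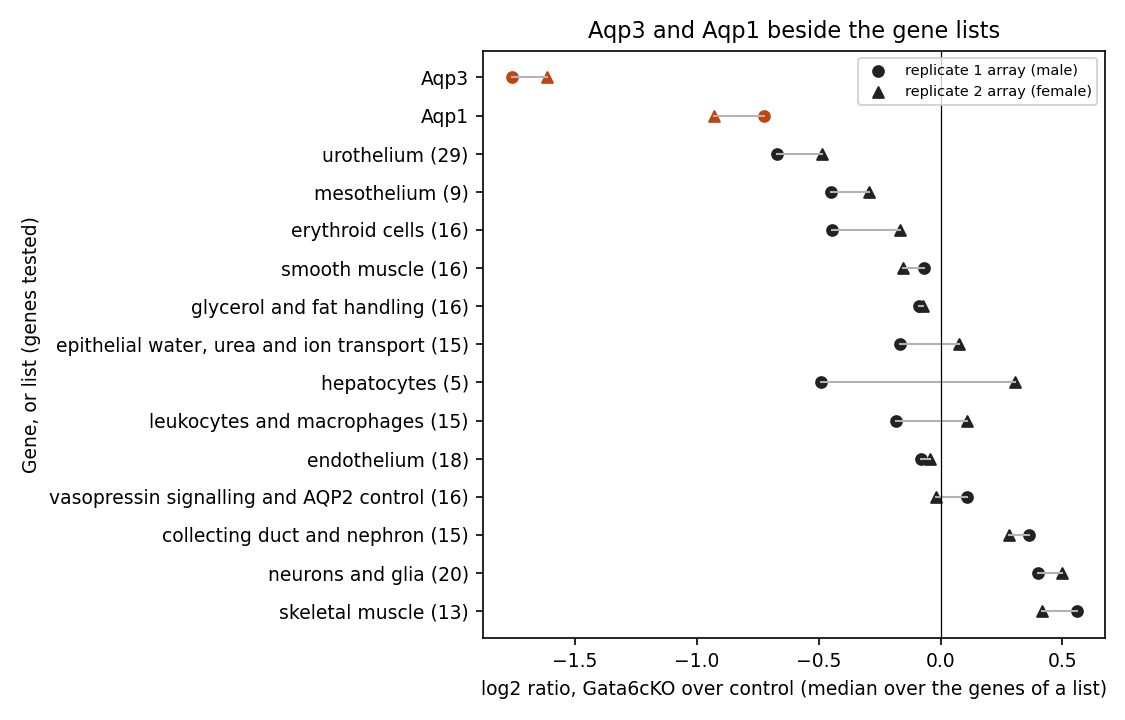
Log2 ratio of Gata6cKO over control on the replicate 1 (circle) and replicate 2 (triangle) array for Aqp3 and Aqp1 (red) and, as the median over the genes tested, for 13 gene lists (black). Aqp3 (-1.76 and -1.61) and Aqp1 (-0.72 and -0.93) lie to the left of the median of the urothelial list (-0.67 and -0.49), the lowest of the lists.

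Because the floxed gene, Gata6, encodes a GATA factor, the letters before the start of 9 of the aquaporin genes were searched for 2 motifs. These were the core motif GATA on both strands (TATC on the other) and the longer form WGATAR, which contains it. The longer form is an A or T, then that core, then an A or G. RefSeq windows (GRCm38.p6) of 9 of the 10 members were used, and Aqp4 was left out. There were 11 windows in all since Aqp7 and Aqp9 have 2 starts each. The core stood in 5 of 11 windows of 250 bases and the longer form in 3 of 11, beside 53.6% and 26.5% of 32851 windows of all genes. A match is a description and not a binding site. The windows of Aqp3, Aqp1 and Aqp2 are shown. The first 2 genes passed. The third, which did not, holds the most cores among the members searched, while for the longer form Aqp2 and Aqp9 are level at 2 matches each. Cores are in capitals.
Aqp3: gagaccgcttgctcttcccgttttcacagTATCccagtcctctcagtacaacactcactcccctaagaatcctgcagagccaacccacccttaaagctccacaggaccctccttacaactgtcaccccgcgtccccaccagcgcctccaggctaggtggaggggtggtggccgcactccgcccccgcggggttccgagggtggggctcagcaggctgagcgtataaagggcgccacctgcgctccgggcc
Aqp1: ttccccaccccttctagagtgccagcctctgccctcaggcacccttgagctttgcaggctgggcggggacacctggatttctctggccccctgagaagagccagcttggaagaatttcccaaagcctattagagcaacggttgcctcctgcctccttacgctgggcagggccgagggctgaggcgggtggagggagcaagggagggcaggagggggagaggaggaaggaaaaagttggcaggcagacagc
Aqp2: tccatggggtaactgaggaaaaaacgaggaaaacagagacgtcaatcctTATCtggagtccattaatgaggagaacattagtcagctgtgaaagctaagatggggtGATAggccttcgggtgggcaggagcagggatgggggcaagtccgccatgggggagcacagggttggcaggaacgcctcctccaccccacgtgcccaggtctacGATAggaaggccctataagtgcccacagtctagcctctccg
They lie, in GRCm38.p6, at chr4:41098184-41098433 (minus strand), chr6:55336049-55336298 (plus) and chr15:99578806-99579055 (plus). Aqp3 holds 1 core and 0 of the longer form, Aqp1 0 of either, and Aqp2 3 cores, 2 of them in the longer form. These letters are not in the Aqp1 window of this length, which says nothing about sites elsewhere. Of the 4 windows of Aqp7 and Aqp9, 1 of each gene holds the longer form.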

How the data were processed

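For each array the authors deposited a scanner file that holds raw mean and local background intensity per spot and dye, a processed intensity after detrending and lowess dye correction, and the log10 ratio of the dyes (Cy5 to Cy3), all per the file headers (Agilent Feature Extraction 10.7.3.1, per the submitters' processing notes). The deposited series values are a score per probe, found by comparison to be a fold on a signed linear scale, Gata6cKO over control (r = 0.985 and 0.980 with the processed ratio on the log2 scale, both column medians 1). There were 0 unused per-sample columns.

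Raw intensities were processed in R 4.3.3 with limma 3.58.1: normexp (offset 50), loess within arrays, spots averaged, control and outlier spots at weight 0. RNA input was 150 ng per the labels. Normalised intensities per RNA were taken after loess and Aquantile, and the offset pulls ratios of dim probes towards 0. The brightest kept probe stood for a gene (26200 probes kept), and symbols were updated by accession with a RefSeq table of GRCm38.p6 (1359 updated). The sign was turned on the dye-swapped array, so each array is its own pair. lmFit and eBayes were used with 1 residual and 12.16 prior degrees of freedom (prior SD 0.162). The steps were tested on simulated data. There the eBayes prior came out tighter than the one simulated and more unchanged genes passed than the threshold allows, so a prior fitted by maximum likelihood was added. Saturated spots numbered 0, and the number of arrays limits the precision.

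The 10 members and the gene lists were chosen with earlier results of these data known. Named genes are all members with every probe, Mip and Aqp12, up to 3 passing genes of smallest p per list, and the 3 genes nearest to each passing member; further genes named were chosen after their values were seen. Clone names were skipped. Promoter windows came from RefSeq, and figures from Python 3.11.15 with matplotlib 3.10.9.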

Additional observations from a re-analysis of the deposited data

Results flagged for a closer look

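The log2 ratio of Aqp4 lay at 0.33 on the replicate 1 array, whose RNAs came from males, and at -0.0055 on the replicate 2 array, whose RNAs came from females. The arrays thus fell on opposite sides of 0. The difference between them was not tested, and the other, dimmer Aqp4 probe gave 0.01 and -0.0049.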

How the results depend on the processing

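The counts of 2 members lower and 0 higher held under all 12 alternative settings. Over these settings the log2 ratio of Aqp3 ran from -1.85 to -1.69 (limma adjusted p from 2.6e-19 to 0.0059) and that of Aqp1 from -0.87 to -0.83 (2.7e-06 to 0.0439), and Aqp2, Aqp4, Aqp7 and Aqp11 passed under none. With the replicate 1 or the replicate 2 array alone Aqp3 ran from -1.76 to -1.61 and Aqp1 from -0.93 to -0.72, with no test, and Aqp4, at 0.16 with both, was at 0.33 without replicate 2 and turned to -0.0055 without replicate 1. Aqp7 has no value where all spots had to be well above background, and gene counts cannot be had from 1 array. Over all genes, the calls lower and higher were 470 and 441, against 100 and 90 with median centring, 231 and 255 without a filter on dim probes, 804 and 680 from the deposited series values, 266 and 272 with separate channels (intraspot correlation -0.044), and 283 and 300 with the prior spread fitted by maximum likelihood; the cause was not tested. This last setting, the median over spots and the names as in the scanner files were chosen after seeing the data, and under the maximum likelihood prior (6.05 degrees of freedom) all 583 genes called were also in the count above. Signal over background limits Aqp5, Aqp6, Aqp8 and Aqp9, which passed the test under none of the settings that kept them. No separate paired analysis was possible because each array already sets a Gata6cKO RNA against its control.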

Other observations

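Of 22 distinct tested genes that lie within 2 genes of an aquaporin and are not aquaporins, 1 was lower and 3 were higher, beside 2.36% and 2.22% of all genes. Aldh1a2, an enzyme of retinoic acid synthesis next to Aqp9, had a log2 ratio of 1.18 ± 0.11 (1.20 and 1.17 on the arrays; limma adjusted p = 2.55e-05), while Aqp9 was not above background. Asic1, an acid-sensing ion channel 2 genes from Aqp6, had -0.79 ± 0.12 (limma adjusted p = 0.00108), Hs3st4, a heparan sulfate sulfotransferase 2 genes from Aqp8, 0.78 ± 0.12 (limma adjusted p = 0.0011), and Inmt, a methyltransferase 2 genes from Aqp1, 0.55 ± 0.11 (limma adjusted p = 0.0106) where Aqp1 had -0.83. The order of genes is that of the RefSeq table, and these neighbours were looked at after the values were seen, so the count is a description.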
